A study of Mus musculus with 9 samples.

Results

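Migrating limb muscle progenitors were followed in 9 single-cell RNA-seq libraries of mouse forelimb buds. The cells were chosen by measured values. A barcode was taken when it had more than 2500 detected genes, fewer than 200000 unique molecular identifiers (UMIs, each a counted mRNA molecule) and under 10% mitochondrial UMIs, when at least 3 of the 6 genes Pax3, Lbx1, Met, Myf5, Eya1 and Sim2 had a UMI, and when the summed UMIs of these genes exceeded those of the mesenchymal pair Prrx1 and Pdgfra. The rule gave 3404 cells among 52432 that passed the filters on genes, UMIs and mitochondrial share, or 6.49%. The libraries comprise 3 wild-type (Wt), 3 EC1CRM8Δ/Δ (E1C8) and 3 EC1CRM5Δ/Δ (E1C5) samples on a Swiss Albino background. Each holds a forelimb bud pair taken at E10.75 (37 to 39 somites). Both mutant lines are homozygous for germline deletions of limb bud enhancers of Grem1, the secreted BMP antagonist. They share loss of the EC1 enhancers and differ in the further element removed, CRM8 or CRM5. Every cell of a mutant embryo carries the deletion, muscle progenitors and mesenchyme alike, so the alleles do not separate events within muscle progenitors from events in the mesenchyme around them. Wt embryos carry neither allele.

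Limb muscles do not arise in the limb. Their progenitors leave the ventrolateral lip of the dermomyotome in the somite, cross into the bud and there divide, enter the myogenic program and fuse. Pax3 acts at the top of this path and is required for the receptor tyrosine kinase Met, whose ligand Hgf (scatter factor) is made by limb mesenchyme and releases the cells from the epithelium. Lbx1 is needed for correct routes into the limb, Eya1 and Eya2 act with Pax3, and Myf5 and Myod1 commit cells to the muscle fate. Sim2 is a bHLH-PAS factor of limb muscle precursors.

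The number of muscle progenitors ranged from 42 in E1C8 replicate 1 and 70 in Wt replicate 3 to 639 in E1C5 replicate 3, so the values of those small libraries are the least precise. The summed depth of the muscle progenitors ranged from 1798830 UMIs in E1C8 replicate 1 to 31871337 UMIs in E1C5 replicate 3. A muscle progenitor had a median of 36157 UMIs, against 32254 in the 36434 limb mesenchymal cells used for comparison. Those cells had a UMI of both Prrx1 and Pdgfra and more UMIs of this pair than of the 6 genes. Mixed cells, with at least 3 detected markers of another listed type, globins aside, were left out of them. The 141 mixed muscle progenitors were kept, so the choice itself lowers such markers in mesenchyme relative to muscle progenitors. Any pair of libraries shared at most 28 cell barcodes, and the shared barcodes made up at most 0.497% of the cells of the smaller library of a pair. UMI counts of X- and Y-linked genes gave a male embryo for all 3 Wt libraries, for E1C8 replicate 3 and for E1C5 replicate 2, and a female embryo for the other mutant libraries. Genes on X and Y were therefore left out of the genotype tests.

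The rule genes describe the cells and were not tested. The mean level of Pax3 over the 9 libraries was 404 ± 58.7 CPM (SD, n = 9), where CPM is the UMIs of a gene per 1000000 UMIs summed over the muscle progenitors of a library. Lbx1 followed at 161 ± 23.3 CPM, Met at 96.2 ± 11.3, Eya1 at 85.2 ± 15.9, Sim2 at 62.1 ± 7.98 and Myf5 at 51.8 ± 25.9 CPM. Relative to its mean, Myf5 varied most among the 6. The level of Prrx1 was 146 ± 34.8 CPM against 687 in mesenchymal cells, and that of Pdgfra was 26.4 ± 8.01 against 126. With every cell thinned to 10000 UMIs, which left out 114 shallower muscle progenitors, Pax3 was detected in 94.3% of 3290 cells, Lbx1 in 75.8%, Met in 57.1%, Eya1 in 55.7%, Sim2 in 42.9% and Myf5 in 28.4%. At full depth these shares were 98.7%, 96.1%, 86.9%, 87.3%, 74.8% and 51.9%. In thinned mesenchymal cells the same genes were found in 0.646% (Myf5) to 3.43% (Pax3) of cells. In erythroid cells, which should lack them and have a median depth of 33890 UMIs, the shares ran from 0.287% to 1.19%. Prrx1 was detected in 59.5% of muscle progenitors and in 26.3% of erythroid cells. Myf5 was detected in 28.4% of the 3104 thinned muscle progenitors with Pax3 and in 29.0% of the 186 without a Pax3 UMI. Both genes are in the rule, and at full depth Pax3 was found in 98.7% of muscle progenitors. These shares therefore cannot show how the genes relate.

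**Figure D1:**
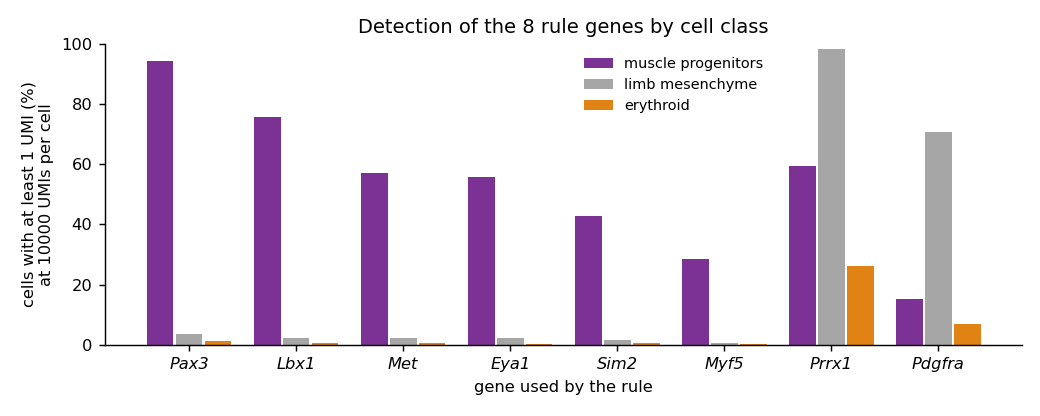
Share of cells (percent, vertical axis) with at least 1 UMI of each gene after thinning every cell to 10000 UMIs, in muscle progenitors, limb mesenchymal cells and erythroid cells. Pax3 was found in 94.3% of the muscle progenitors and Myf5 in 28.4%, while the mesenchymal gene Prrx1 was found in 98.3% of mesenchymal cells and 26.3% of erythroid cells.

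All 6 genes were present in 1092 cells, 5 in 1390, 4 in 602 and 3 in 320. The cells with 3 genes lie closest to the limit on gene number, with a median of 7 marker UMIs and 13703 UMIs in all. Just outside it, 218 barcodes had 2 of the genes, with a median of 3 marker UMIs against 1 of the mesenchymal pair. The limit on the UMI sums is closer to many cells. In 586 muscle progenitors the marker sum was at most 2 times that of the pair, with medians of 30 and 21 UMIs. A further 1296 barcodes had at least 3 of the genes but no larger sum, with medians of 16 and 42 UMIs and 68066 UMIs in all. A stricter group of 2189 cells, in which the marker sum was at least 5 times that of the pair, is used below wherever mesenchymal RNA bears on a value. This group is cut on the pair, so genes that vary with Prrx1 and Pdgfra have to fall in it. Its share of the muscle progenitors was lowest in E1C8, at 50% to 63.6%, against 63.2% to 77.1% for Wt and 64.8% to 73.5% for E1C5.

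RNA of other cell types was present in all libraries. The summed level of the 8 mesenchymal marker genes in muscle progenitors was 285 to 414 CPM in Wt, 461 to 556 in E1C8 and 288 to 475 in E1C5, against 1700 CPM in mesenchymal cells. Globins summed to 1830 to 7830 CPM in Wt, 248 to 9270 in E1C8 and 584 to 1370 in E1C5. The 7 endothelial markers summed to 24.2 to 236 CPM in Wt, 10.5 to 222 in E1C8 and 4.73 to 7.81 in E1C5, with the highest values in the small libraries Wt replicate 3 and E1C8 replicate 1. Epithelial markers summed to 3.18 to 5.20, 8.89 to 25.9 and 1.52 to 4.11 CPM in the 3 genotypes, and immune markers to 0.849 to 1.67, 0.556 to 9.83 and 0.338 to 13.6 CPM. Megakaryocyte markers summed to 1.49 to 10.5, 1.67 to 110 and 0.507 to 26.3 CPM, highest in E1C8 replicate 3 and E1C5 replicate 3. Of these, Ppbp, Gp9, Itga2b and Gp1bb were under 1 CPM each. Neural crest markers stayed between 5.48 and 9.10 CPM, with Sox10, Foxd3, Erbb3 and Dct under 1 CPM each, and neuronal markers between 9.92 and 32.5 CPM. The 4 sclerotome markers summed to 6.15 to 6.91 CPM in Wt, 6.91 to 13.7 in E1C8 and 9.95 to 12.7 in E1C5, against 18.0 in mesenchyme. Of these, Nkx3-2 was at 0 UMIs and Uncx at a mean of 4.46 CPM in the muscle progenitors, against 0.0825 in mesenchyme. A doublet caller marked 546 of the cells, from 0% to 23.2% of a library. Its rate among all cells of a library was fixed beforehand at 0.8% per 1000 deposited barcodes, so this range depends on barcode number. The marked cells were kept, and their removal is among the alternatives.

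The share of muscle progenitors among all cells did not separate the genotypes. It was 6.01%, 6.09% and 7.32% in the Wt libraries, 6.95%, 6.24% and 6.90% in E1C8, and 7.43%, 5.83% and 6.67% in E1C5. The groups overlap, and the highest and lowest shares both belong to E1C5. Both mutants together had a mean of 6.67% ± 0.567 (SD, n = 6) against 6.47% ± 0.73 in Wt (n = 3), a difference of 0.198 percentage points with p = 0.69 in a two-sided exact permutation test, for which 0.0238 is the smallest p possible. For E1C8 alone the difference was 0.225 points (exact permutation p = 0.80) and for E1C5 alone 0.171 points (exact permutation p = 0.90), where 3 libraries against 3 cannot go below 0.1. With the rule applied to cells thinned to 10000 UMIs the shares were 4.79% to 6.31% in Wt, 5.27% to 5.60% in E1C8 and 5.21% to 6.10% in E1C5. A share depends on the loss of other cells during dissociation as well as on muscle progenitors, and these cannot be told apart.

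**Figure D2:**
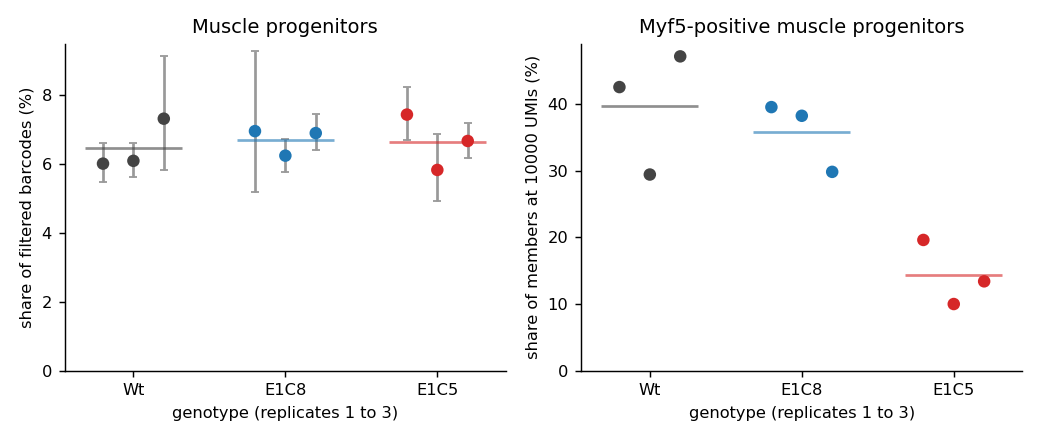
Left, muscle progenitors as a percentage of all cells past the filters (vertical axis) in each library, with 95% Wilson intervals; right, the percentage of muscle progenitors with a Myf5 UMI at 10000 UMIs. Points are libraries in order of replicate and horizontal bars are group means; the shares overlap between 5.83% and 7.43% on the left, and the 3 E1C5 libraries lie lowest on the right, at 10.0% to 19.6%.

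Muscle progenitors were then set against limb mesenchymal cells of the same libraries to show what else marks them. Of 13803 genes tested, 542 (3.93%) were higher and 586 (4.25%) lower in muscle progenitors, at an adjusted p under 0.05 and at least a 2-fold difference (edgeR quasi-likelihood test, Benjamini-Hochberg adjustment). Since the cells were selected on 8 genes, any gene that varies with those 8 had to differ, and the p-values describe the spread over libraries only. The median log2 difference over all tested genes was -0.02.

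Transcription factors of the myogenic program were mostly higher. Of 32 listed, the rule genes Pax3, Lbx1, Myf5, Eya1 and Sim2 were not tested and 3 others had too few counts. Of the 24 tested, 12 were higher and 1 lower, with a median log2 difference of 1.01. Eya2, a transcriptional co-activator, stood at 43.6 ± 12.6 CPM against 1.59 in mesenchyme (log2 difference 4.88 ± 0.11 SE, adjusted p 4.18e-13). Myod1 (log2 5.47) and Msc, a bHLH repressor of myogenic factors at 13.1 against 0.327 CPM (log2 5.50), were higher as well. Pax7, the paralogue of Pax3 that marks later muscle progenitors, differed by 4.36 on the log2 scale but reached only 1.96 CPM. Myf6, a late myogenic factor, was at 0.743 CPM. Lbx2, a paralogue of Lbx1, was lower (log2 -1.22). Pax7 was detected in 1.85% of thinned cells, Myod1 in 3.98% and Myog, which drives differentiation, in 0.973%, against 0.0282% to 0.0931% in mesenchyme.

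The genes with the largest differences were not myogenic factors alone. Among genes of at least 20 CPM that were higher in every library, Hpgd, which degrades prostaglandins, led at 114 against 2.90 CPM (log2 5.54 ± 0.17), although it is also transcribed by the endothelial cells of these libraries at 46.7 CPM. Below that level, the sclerotome marker Uncx had a larger difference (52.5-fold, adjusted p 6.2e-12). Sp5, a transcription factor induced by Wnt signals, was at 57.0 against 1.5 CPM (log2 5.38). Mybpc1, the slow-type myosin-binding protein C of the contractile apparatus, was at 32.4 against 0.827 CPM (log2 5.28 ± 0.15). Others among the 15 leading genes were Gabra2 (log2 5.24), Wnt16 (4.78), Nav3 (4.75), Foxd2os (4.69), Dlgap1 (4.67) and Cpne8 (4.66). Cdkn1a, the cyclin-dependent kinase inhibitor p21, was at 44.1 against 2.15 CPM (log2 4.42 ± 0.15). It was the 1 gene of 18 tested cell cycle genes that passed, and the median of that list was -0.09. The 5 leading genes in the other direction were Hand2os1 (log2 -2.66), Mab21l2 (-2.58), Hoxd11 (-2.49), Hand2 (-2.48) and Lhx2 (-2.45), all of them genes of limb bud mesenchyme.

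Genes for delamination and migration did not move as a group, with 4 higher and 5 lower of 25 tested and a median of 0.12. Cxcr4, the receptor for the chemokine Cxcl12 that guides migrating muscle progenitors, was higher at 22.9 ± 10.67 against 0.602 ± 0.336 CPM (SD, n = 9; log2 5.22 ± 0.13 SE, adjusted p 8.15e-13). It was detected in 18.0% of thinned muscle progenitors, 0.539% of mesenchymal and 0.328% of erythroid cells. Endothelial cells carried 32.5 CPM of Cxcr4, and the part that their RNA has in this result was not tested. Ackr3, the scavenging receptor for the same ligand, was higher by 1.40, the integrin subunit Itga4 by 4.21 ± 0.24 and Erbb3, at under 1 CPM, by 1.56 on the log2 scale. The ephrin receptors Epha4 (log2 -1.42) and Epha7 (-1.11), the semaphorin co-receptor Nrp1 (-1.38), Cdh6 (-1.74) and the Slit receptor Robo2 (-1.78) were lower. Gfra1, the receptor of the neurotrophic factor Gdnf, was among the 15 leading genes at 20.1 against 1.10 CPM (log2 4.24), and the ligand Gdnf was itself higher in muscle progenitors, at 17.0 against 3.09 CPM (log2 2.63).

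Of the 9 migration ligands tested, 2 were higher and 3 lower. Hgf was lower, at 5.32 against 18.1 CPM in mesenchyme (log2 -1.66 ± 0.11). In the stricter group its ratio to mesenchyme was 0.105 and in erythroid cells 0.072. Slit2 was at 62.5 against 17.4 CPM (log2 1.89), while Slit3 (log2 -1.56) and Sema3a (-1.03) were lower. A Slit ligand was therefore high in the muscle progenitors and its paralogue high in the mesenchyme.

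Genes of differentiated muscle were higher in 8 of 11 tested among 22 listed, with a median log2 difference of 2.01. The higher genes include the muscle cadherin Cdh15 (3.77), titin Ttn (2.43), desmin Des (2.16), cardiac actin Actc1 (2.01), the slow troponin Tnnt1 (1.94) and Rbm24, an RNA-binding splicing regulator of muscle (1.91). Chrna1, a subunit of the acetylcholine receptor, was lower (-1.99). The Notch list had 3 higher of 12 tested, namely Lfng (2.71), Nrarp (1.96) and Hes6 (1.09). Of 16 BMP genes, 1 was higher and 5 lower. Id2, an inhibitor of bHLH factors, was at 446 against 226 CPM (log2 1.07), whereas Id1 (-1.03), Id4 (-1.55), Msx1 (-1.26), Msx2 (-2.10) and the pseudoreceptor Bambi (-1.24) were lower. Among 13 FGF genes Fgfr4 was higher (1.63) and Fgfr2 (-1.35), Spry1 (-1.56) and Spry4 (-1.03) lower. The 10 hedgehog genes gave 0 calls, with a median of -0.22. In the lists of other cell types, 5 of 6 tested mesenchymal genes were lower, and 7 of 7 endothelial genes, 6 of 7 globins and 5 of 5 erythroid genes were higher. Mesenchymal cells with several endothelial or erythroid markers had been left out, so these counts are in part set by that choice. The summed levels of the endothelial and globin genes are given above.

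**Figure D3:**
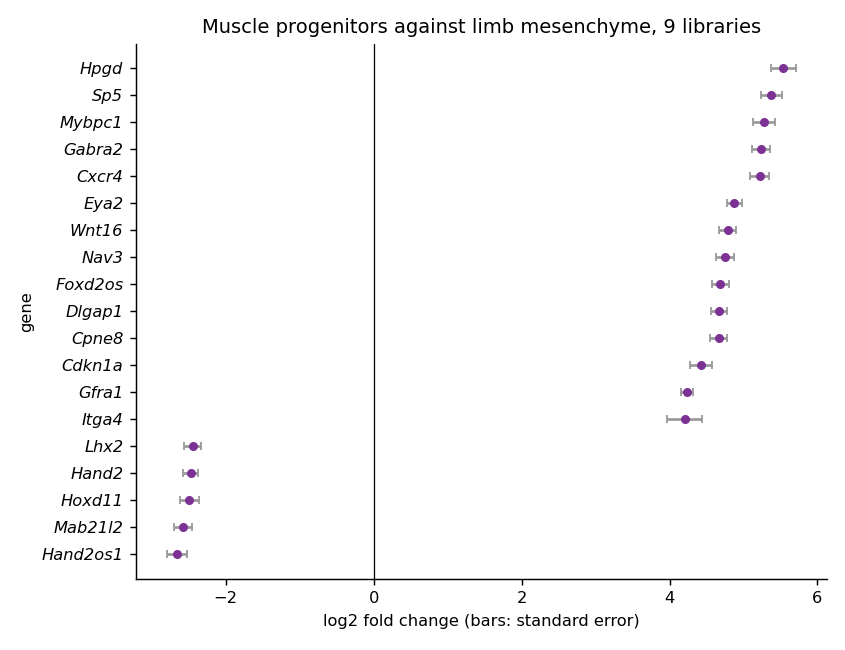
Fitted log2 fold change between muscle progenitors and limb mesenchyme (horizontal axis) for 14 of the 15 leading higher and the 5 leading lower genes (vertical axis); points are estimates over 9 libraries and bars are standard errors. The higher genes run from Itga4 at 4.21 to Hpgd at 5.54 and the lower genes from Lhx2 at -2.45 to Hand2os1 at -2.66.

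Paralogues 9 to 11 of the HoxA and HoxD clusters, which both pattern the limb along its length, stood at different levels. Of 33 Hox genes tested, 1 was higher (Hoxd1, log2 2.13) and 13 were lower, with a median of -0.82. The ratio of the level in muscle progenitors to that in mesenchyme was 0.2 for Hoxd9, 0.179 for Hoxd10 and 0.159 for Hoxd11. The ratio of the mesenchymal gene Tbx5, which the rule did not use, was 0.194. The paralogues on the HoxA cluster gave 0.941 for Hoxa9, 1.06 for Hoxa10 and 1.87 for Hoxa11. Hoxa9 stood at 162 ± 34.4 CPM against 172 ± 32.4 (log2 -0.02, adjusted p 0.454). Hoxa10 stood at 167 ± 36.6 against 157 ± 26.7 (log2 0.16, adjusted p 0.0708). Hoxa11 was at 118 ± 27.98 against 63.1 ± 8.22 CPM, a log2 difference of 0.96 ± 0.06 (adjusted p 2.62e-09) that falls just short of the 2-fold limit. Among other paralogues, Hoxa13 was lower (log2 -1.28, adjusted p 4.52e-06), with a ratio of 0.374, as was Hoxd13 (log2 -2.12). Hoxd3 and Hoxd4, with 0.669 and 0.754, were within the 2-fold limit, as were Hoxa3 and Hoxa4 (0.905 and 0.84). In the stricter group the ratio was 0.945 for Hoxa9, 1.12 for Hoxa10 and 2.06 for Hoxa11, while it fell to 0.0723 for Hoxd9, 0.0582 for Hoxd10 and 0.0439 for Hoxd11. The last 3 values lie below those of erythroid cells, 0.0777 to 0.0890, which should lack these transcripts. The level of these HoxD genes in the stricter group is no higher than in erythroid cells, and that of Hoxa9 to Hoxa11 is near or above that of mesenchyme. Since the stricter group was cut on Prrx1 and Pdgfra, its HoxD values cannot decide whether muscle progenitors lack these transcripts.

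**Figure D4:**
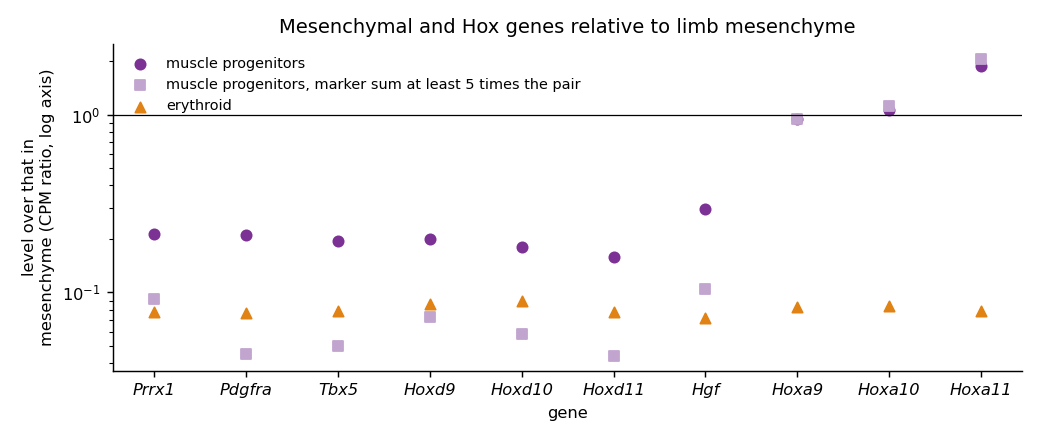
Ratio of the mean CPM to that in limb mesenchyme (vertical axis, logarithmic) for mesenchymal genes and the Hox genes named in the text (horizontal axis). Circles are muscle progenitors, squares the stricter group and triangles erythroid cells, and the line marks equal levels. For muscle progenitors Hoxd9 to Hoxd11 lie between 0.159 and 0.2, and Hoxa9 to Hoxa11 lie between 0.941 and 1.87.

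Myf5 divided the cells. After thinning to 10000 UMIs, 935 cells had a Myf5 UMI and 2355 had none. A cell without a UMI at this depth may still express the gene. The share with Myf5 was 42.5%, 29.4% and 47.1% in Wt, 39.5%, 38.2% and 29.8% in E1C8, and 19.6%, 10.0% and 13.4% in E1C5. The E1C5 shares lay below those of all other libraries, with no test since Myf5 belongs to the rule. The classes were compared within the 7 libraries that had at least 20 cells in each (E1C8 replicate 1 and E1C5 replicate 2 had 15 and 13 Myf5-positive cells). Of 9351 genes tested, 82 were higher (0.877%) and 63 lower (0.674%) in Myf5-positive cells. As before, the classes were made from the same cells, and the p-values describe the spread over libraries.

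Among genes of at least 20 CPM that moved 1 way in every library, Cdkn1a had the largest increase, at 71.1 ± 31.5 CPM in Myf5-positive and 34.0 ± 17.9 in Myf5-negative cells (log2 1.18 ± 0.09 SE, adjusted p 9.27e-19; 7 of 7 libraries). Myod1 was at 12.8 against 8.30 CPM (log2 0.98, adjusted p 0.00487; 6 of 7 libraries). Cdh15 was at 12.3 against 7.81 CPM (log2 0.99, adjusted p 0.00218), but gave an adjusted p of 0.0529 in the stricter group. Hes6, a Notch-related bHLH protein that favours myogenic differentiation, was at 95.1 against 69.3 CPM (log2 0.52, adjusted p 5.69e-08). Mybpc1 was at 39.7 against 27.1 CPM (log2 0.51), the RhoA activator Net1 at 87.9 against 60.3 (log2 0.62) and the type 1 BMP receptor Bmpr1b at 20.4 against 12.3 (log2 0.86). Hs3st3b1 (0.67), Gamt (0.62), Cnksr2 (0.57), Celf2 (0.50) and Nkd2 (0.46) complete the rule for named genes. Fst, the secreted antagonist of activins and myostatin, had a larger fitted difference than Cdkn1a (1.25) but was higher in only 5 of 7 libraries, at 17.5 ± 13.9 against 7.40 ± 3.77 CPM. Fgf9 (1.15) was also higher, at 16.9 ± 12.7 against 7.55 ± 5.48 CPM (7 of 7 libraries). Both were singled out after their values were seen. By list, 3 of 18 myogenic factors, 2 of 5 genes of differentiated muscle, 2 of 7 Notch genes, 2 of 18 cell cycle genes and 1 of 8 hedgehog genes were higher, and none of these was lower. The cell cycle genes were the inhibitor Cdkn1a and the cyclin Ccnd2 (log2 0.14, adjusted p 0.0188). The Notch genes were Hes6 and Hes1 (log2 0.31, adjusted p 0.0134). The 22 migration genes gave 0 calls in either direction, where 0.877% of all genes were higher and 0.674% lower.

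On the lower side were the homeobox gene Msx1, a repressor of muscle differentiation, at 34.7 against 58.6 CPM (log2 -0.79, adjusted p 6.21e-11, 7 of 7 libraries), and Id3, a BMP target that sequesters bHLH partners, at 318 against 394 CPM (log2 -0.30, adjusted p 6.52e-09). Junb (-0.84), Ets1 (-0.81), Hivep1 (-0.73), Gap43 (-0.62) and Slit2 (-0.46) were lower too. Of the other mesenchymal markers Lhx9 (-0.57) and Prrx2 (-0.37) were lower in the same cells, as was Hoxd11 (-0.64). Tbx5 (-0.25, adjusted p 0.559), Col1a1 (-0.04, adjusted p 0.967) and Twist2 (0.12, adjusted p 0.816) did not pass. The rule genes Prrx1 and Pdgfra differed by -0.17 and -0.27, given without a test. Of 7 globins, 5 were lower. The part of RNA from other cells in the values of Msx1 was not tested.

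The myogenic bHLH factors bind E-boxes. A form often bound by Myod1 is CAGCTG, which reads alike on both strands. Another is CAGGTG, which reads CACCTG on the opposite strand, and both strands were searched. Promoters are shown for the 3 genes higher in Myf5-positive cells that have a known role in muscle or in the exit from the cell cycle and hold such letters. Each is the 250 bases before a RefSeq start on GRCm38.p6, with the match in capitals. A further start of Cdkn1a, with the window chr17:29090729-29090978, held 0 matches, and a further start of Hes6 held 2. These windows are not shown. Hes6 lies on the minus strand at chr1:91413223-91413472, Mybpc1 on the minus strand at chr10:88605153-88605402, and Cdkn1a on the plus strand at chr17:29093519-29093768.
Hes6: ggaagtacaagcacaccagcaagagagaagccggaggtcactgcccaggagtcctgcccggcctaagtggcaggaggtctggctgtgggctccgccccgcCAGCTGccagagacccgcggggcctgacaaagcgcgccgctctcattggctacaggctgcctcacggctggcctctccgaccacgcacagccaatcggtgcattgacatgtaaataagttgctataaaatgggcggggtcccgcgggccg
Mybpc1: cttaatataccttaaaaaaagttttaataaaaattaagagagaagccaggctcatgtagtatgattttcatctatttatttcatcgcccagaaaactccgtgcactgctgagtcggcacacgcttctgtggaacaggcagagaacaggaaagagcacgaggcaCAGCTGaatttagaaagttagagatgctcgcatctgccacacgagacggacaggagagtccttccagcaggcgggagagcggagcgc
Cdkn1a: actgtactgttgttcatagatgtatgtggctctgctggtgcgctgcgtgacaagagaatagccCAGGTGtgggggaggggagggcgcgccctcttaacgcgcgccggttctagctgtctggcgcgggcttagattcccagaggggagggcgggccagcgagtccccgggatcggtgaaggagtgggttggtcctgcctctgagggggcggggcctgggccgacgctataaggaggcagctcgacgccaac
Of 17 genes looked up, those named by the rule or by a list as higher, 13 had a promoter in the table and 5 held either form, namely Bmpr1b, Cdkn1a, Cnksr2, Hes6 and Mybpc1. Over all genes higher in Myf5-positive cells the share with either form was 33.9% (21 of 62), against 20.4% (10 of 49) of the lower genes, 26.1% (1950 of 7483) of the genes tested and 30.6% (8263 of 27025) of all promoters in the table. CAGCTG alone was held by 17.7%, 14.3%, 13.0% and 14.7%, and CAGGTG or CACCTG by 22.6%, 6.12%, 15.7% and 19.4%. The share in the higher genes is thus close to that of all promoters. A match is a description of the letters and not of binding.

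The genotypes were compared on UMIs summed over the muscle progenitors of each library, with the Wt libraries as the shared control of all contrasts with a mutant. Of 13046 genes tested, both mutants together differed from Wt in 52 (19 higher, 33 lower, 0.399% of genes), E1C8 in 205 (79 higher, 126 lower, 1.57%), E1C5 in 90 (21 higher, 69 lower, 0.690%), and E1C5 from E1C8 in 281 (171 higher, 110 lower, 2.15%). The groups did not overlap in 37 of the 52, 199 of the 205, 90 of the 90 and 270 of the 281 called genes. A lack of overlap is thus what most called genes showed. Its share over all genes tested is not given here, so a lack of overlap named below adds no support to a call. The counts of called genes depend on how sex is treated. All Wt embryos were male and each mutant group held 1 male, and with sex as a covariate the counts were 0, 11, 0 and 134. In the 2 contrasts with 0 calls, 1143 (both mutants) and 1004 (E1C5) genes had an unadjusted p under 0.05 in that fit. With no effect at all, a share of 0.05 of the genes tested would have one too. The fitted differences were -1.73 for Rbm24, -0.96 for Net1 and -2.40 for Fst in both mutants, and -1.20 for Cdkn1a and -4.91 for Myod1 in E1C5. These genes were picked among those called without the covariate. As all Wt embryos were male, the sex term rests on the mutant libraries alone, and this fit cannot settle the part of sex in the calls. The E1C5 count rests on all 3 of its libraries, since without replicate 1, 2 or 3 it was 5, 0 and 4. Values of the male mutant libraries, E1C8 replicate 3 and E1C5 replicate 2, can be read in the lists below, where replicates are given in order. Grem1 itself is made by mesenchyme. There it was at 41.55, 27.95 and 31.15 CPM in Wt, 11.4, 10.76 and 12.5 in E1C8 and 17.8, 16 and 25.03 in E1C5 (both mutants, log2 -1.14 ± 0.13, adjusted p 0.00313). For E1C8 alone Grem1 was called, as under all 14 alternatives (log2 -1.67 to -1.4). For E1C5 alone it was not called in mesenchyme. Of 14 alternatives, 4 called it (log2 -0.881 to -0.549 and adjusted p up to 0.176 over all 14). In muscle progenitors it was at 17.0, 12.8 and 5.31 in Wt, 7.78, 15.5 and 12.5 in E1C8 and 6.69, 8.61 and 14.9 in E1C5, and was not called.

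In E1C5 Myod1 and Pitx3, 2 factors of the myogenic program, were lower, and so were Cdkn1a and Rbm24. Myf5 was at 76.0, 43.8 and 85.9 CPM in the Wt libraries, 77.3, 68.5 and 46.8 in E1C8, and 26.5, 22.0 and 19.4 in E1C5, given without a test. The 3 E1C5 values lie below the other 6. Pax3 showed no such order, with 444, 368 and 278 CPM in Wt, 411, 405 and 411 in E1C8, and 385, 449 and 483 in E1C5. Myod1 was at 11.7, 5.21 and 39.3 CPM in Wt, 3.89, 8.43 and 5.63 in E1C8, and 1.15, 0.844 and 0.126 in E1C5. E1C5 lay below all Wt and E1C8 libraries (E1C5 against Wt, log2 -4.82 ± 0.85, adjusted p 0.0314). Pitx3, a homeodomain factor of myogenic cells, was lower too (log2 -2.90, adjusted p 0.0398). Its level was low, with means of 2.897 CPM in Myf5-positive and 1.733 in Myf5-negative cells and a lowest library value of 0 in each. The call of Myod1 was lost under 5 of 21 alternatives and that of Pitx3 under 7, with adjusted p of up to 0.203 and 0.279. Both were lost on leaving out any 1 of the E1C5 libraries. The E1C5 calls of Cdkn1a and Rbm24 were lost under 5 and 4. Myod1 and Pitx3 were the 2 of 24 myogenic factors called in E1C5, where 0.690% of all genes were called. No migration gene of 25, no BMP gene of 16 and no Notch gene of 12 was called, the Notch list having a median of -0.64 against 0.01 for all genes. At so small a share of calls, lists of this size can have none without differing from other genes. Hes6 was at 73.9, 70.1 and 114 CPM in Wt and 48.5, 51.2 and 46.3 in E1C5 without passing. Cdh15 was at 9.33, 8.31 and 37.8 in Wt and 2.63, 4.56 and 1.66 in E1C5 (adjusted p 0.061).

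Cdkn1a was at 68.9, 50.3 and 77.9 CPM in Wt, 43.9, 40.1 and 46.4 in E1C8, and 24.6, 29.4 and 15.2 in E1C5. All mutant values lie below all Wt values and E1C5 lies lowest (E1C5 against Wt, log2 -1.49 ± 0.24, adjusted p 0.0200; both mutants, -1.04, adjusted p 0.0446, and 0.141 without both small libraries). Rbm24 was at 11.6, 8.95 and 18.9 CPM in Wt, 2.78, 5.80 and 5.50 in E1C8, and 2.91, 2.36 and 1.76 in E1C5 (both mutants, log2 -1.83 ± 0.26, adjusted p 0.0102). In mesenchyme Rbm24 was between 1.11 and 2.09 CPM in all libraries, so the E1C5 values are close to that level. Net1 was at 106, 77.9 and 106 CPM in Wt, 45.0, 52.4 and 48.0 in E1C8, and 51.5, 46.9 and 50.8 in E1C5 (both mutants, log2 -0.95, adjusted p 0.00772), with no overlap between Wt and either mutant. The RNA-binding protein gene Celf2 was at 49.0, 29.95 and 49.2 in Wt against 25.9 to 26.1 in E1C8 and 18.9 to 20.1 in E1C5 (both mutants, log2 -0.88, adjusted p 0.0156). Fst was at 16.7, 14.3 and 44.6 CPM in Wt, 2.78, 6.35 and 6.47 in E1C8, and 4.49, 2.20 and 3.73 in E1C5 (both mutants, log2 -2.32 ± 0.34, adjusted p 0.0118). Wt replicate 3, with 70 cells, gave the highest Wt value for Myod1, Cdh15, Rbm24 and Fst. The male E1C5 library lay below every Wt library for Myod1, Cdkn1a, Rbm24, Net1, Celf2 and Fst. These genes were among the 90 called in E1C5, none of which overlapped Wt. The place of the male library was thus given by that lack of overlap and tells nothing about sex. The male E1C8 library lay below every Wt library for these genes apart from Myod1.

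**Figure D5:**
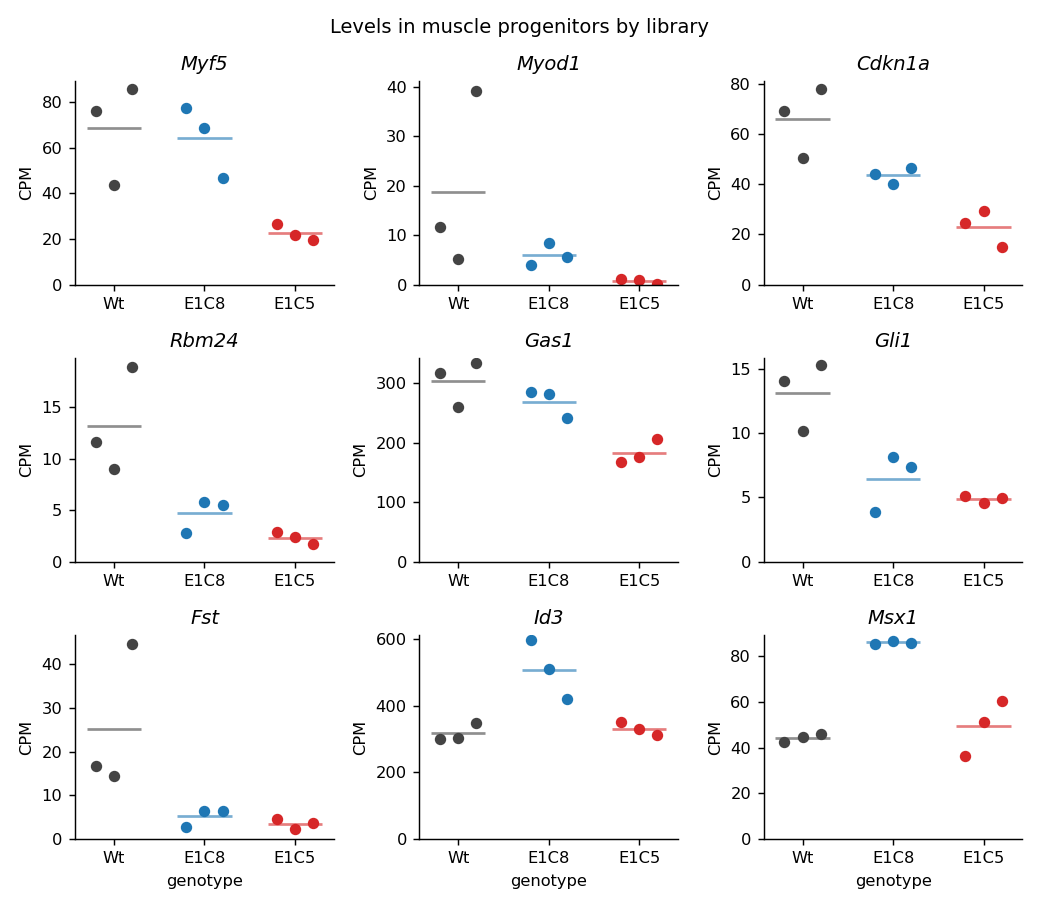
Level in muscle progenitors (CPM, vertical axes) of 9 genes in each library, by genotype; points are libraries in order of replicate and bars are group means. For Cdkn1a, Rbm24, Gli1 and Fst every mutant point lies below every Wt point, for Myf5 and Myod1 the E1C5 points lie lowest, and for Id3 and Msx1 the E1C8 points lie highest.

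Of the 10 hedgehog pathway genes tested, 3 (Gli1, Hhip and Gas1) were lower in E1C5 and 0 higher, where 0.690% of all genes were called. In both mutants together 2 (Gli1 and Hhip) were lower, against 0.399% of all genes. The receptor and target Ptch1 differed by -0.58 in both mutants without passing (adjusted p 0.13). Gli1, a transcriptional effector and target of the pathway, was at 14.1, 10.1 and 15.3 CPM in Wt, 3.89, 8.12 and 7.39 in E1C8, and 5.15, 4.56 and 4.99 in E1C5 (both mutants, log2 -1.09, adjusted p 0.0205; E1C5, -1.34, adjusted p 0.0200). Hhip, a membrane-bound antagonist induced by the pathway, was at 7.69, 6.30 and 7.21 CPM in Wt, 1.11, 3.11 and 3.21 in E1C8, and 3.07, 2.03 and 1.88 in E1C5 (both mutants, log2 -1.40, adjusted p 0.0264). In both genes the mutants lay below every Wt library. In both mutants the call of Gli1 was lost under 6 of 21 alternatives and that of Hhip under 7. Without Wt replicate 1 or 3 the adjusted p was 0.0664 and 0.0659 for Gli1, without Wt replicate 1, 2 or 3 it was 0.0702, 0.0581 and 0.0673 for Hhip, and without E1C5 replicate 2 or E1C8 replicate 2 it was 0.0581 and 0.0508 for Gli1 and 0.0636 and 0.0771 for Hhip. With sex as a covariate it was 0.287 and 0.338. Hhip was lower in E1C5 mesenchyme as well (log2 -1.15, adjusted p 0.0142). Gas1, a co-receptor for hedgehog ligands, was at 318, 260 and 334 CPM in Wt, 285, 281 and 241 in E1C8, and 168, 177 and 206 in E1C5 (E1C5 against Wt, log2 -0.69 ± 0.11, adjusted p 0.0200; E1C5 against E1C8, -0.48, adjusted p 0.0441). The second Gas1 call was lost under 10 of 21 alternatives, among them leaving out any 1 of the E1C5 and E1C8 libraries, with an adjusted p of up to 0.222. In E1C5 against Wt the calls of Gas1 and Gli1 were lost under 5 of 21 and that of Hhip under 9, among them leaving out any 1 of the E1C5 libraries.

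Genes that followed Myf5 within libraries were on the lower side in nearly all cases where a genotype contrast called them. Of the 82 genes higher in Myf5-positive cells, 78 were tested by genotype. In E1C5, where 0.690% of all genes were called, 11 were lower and 0 higher, with a median log2 difference of -0.24 against 0.01 over all genes, namely Celf2, Nexn, Myod1, Stra6, Smtnl2, Pgf, Net1, Gas1, Fst, Fgf9 and Cdkn1a. In E1C8, 6 were lower and 1 higher, with a median of -0.25 against -0.01. Both mutants together gave 8 lower and 0 higher (median -0.23 against -0.01). Of the 63 genes lower in Myf5-positive cells, 61 were tested, and in E1C5 3 of these were higher and 0 lower. The Myf5 classes include the Wt and mutant libraries themselves, so these counts are no independent evidence for the genotype difference.

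Of 16 BMP genes tested, 3 were higher in E1C8 and 0 lower, where 1.57% of all genes were called. Msx1 was at 42.4, 44.8 and 46.1 CPM in Wt, 85.6, 86.8 and 86.0 in E1C8, and 36.4, 51.2 and 60.4 in E1C5 (E1C8 against Wt, log2 0.94 ± 0.14, adjusted p 0.0132; E1C5 against E1C8, -0.75, adjusted p 0.0267). Id3 was at 300, 303 and 349 CPM in Wt, 598, 510 and 420 in E1C8, and 351, 332 and 311 in E1C5 (E1C8, log2 0.64 ± 0.13, adjusted p 0.0377). Msx2 was at 3.18, 5.48 and 7.21 CPM in Wt, 10.0, 21.0 and 13.5 in E1C8, and 4.77, 6.42 and 6.21 in E1C5 (E1C8, log2 1.64, adjusted p 0.0285). In each the E1C8 libraries lay above all others. The mesenchymal marker sums of E1C8, 461 to 556 CPM, also lay above the 285 to 414 of Wt, and Msx1, Msx2 and Id3 were higher in E1C8 mesenchyme too (log2 0.51, 0.88 and 0.74). In the stricter group Msx1 differed by 0.69 (adjusted p 0.0234), Id3 by 0.67 (adjusted p 0.0242) and Msx2 by 1.32 (adjusted p 0.106). Without E1C8 replicate 2 the adjusted p was 0.0804 for Msx1 and 0.183 for both Id3 and Msx2, and with sex as a covariate it was 0.0771 for Msx1, 0.223 for Id3 and 0.168 for Msx2.

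E1C8 differed from Wt in the mesenchyme of the same embryos too, and the contrasts share the Wt embryos. Of the 205 genes called in E1C8 muscle progenitors, 186 (90.7%) were also called in mesenchyme, all in the same direction. There 8.16% of all genes were called. For E1C5 against E1C8 234 of 281 (83.3%) were called in mesenchyme, where 9.20% of all genes were. For E1C5 against Wt it was 25 of 90 (27.8%), against 1.53% of all genes. The E1C8 calls are thus mostly not particular to muscle progenitors. Small nucleolar RNA host genes, singled out after their values were seen, are an example from E1C8. Snhg1 was at 285, 279 and 236 CPM in Wt, 663, 690 and 624 in E1C8, and 310, 258 and 381 in E1C5 (E1C8, log2 1.27, adjusted p 0.000617). In mesenchyme its level was 181 to 257 CPM in Wt and 556 to 580 in E1C8 (log2 1.26, adjusted p 0.00281). Snhg15 was at 25.4, 23.5 and 24.0 CPM in Wt, 81.2, 68.5 and 70.0 in E1C8, and 26.2, 26.3 and 24.1 in E1C5 (log2 1.55 ± 0.10), against 1.70 in mesenchyme, and Snhg5 differed by 1.92. Both Snhg1 and Snhg15 stayed called under all 21 alternatives, sex as a covariate included. Ptpn11, a phosphatase that acts below Met, was lower in E1C8 (log2 -0.41, adjusted p 0.0441). Ackr3 was lower in E1C5 than in E1C8 (log2 -1.31, adjusted p 0.0264).

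The largest fitted changes by the rule for named genes included genes of other cell types. The endothelial genes Gja4, Sox7 and Clec1a were among the leading lower genes of both mutants. Gja4 was at 2.76, 4.87 and 24.8 CPM in Wt, 0, 1.95 and 0.748 in E1C8 and 0.0548, 0 and 0.0941 in E1C5 muscle progenitors, and averaged 193 CPM in endothelial cells. Endothelial marker sums in the same order were 24.2, 51.2 and 236 CPM in Wt, 222, 16.5 and 10.5 in E1C8 and 5.32, 4.73 and 7.81 in E1C5. The part of endothelial cells in the Gja4 result was not tested. Scg5, a gene next to Grem1, was lower in both mutants at a low level (log2 -2.33, adjusted p 0.00826). Among higher genes of both mutants were Fibin, a secreted protein gene (mean 23.9 CPM in Wt, 49.6 in E1C8 and 68.6 in E1C5; log2 1.22), the actin-severing protein Gsn (9.67, 24.7 and 15.9 CPM; log2 1.05), 2810408I11Rik (32.7, 51.3 and 63.4 CPM; log2 0.77), Ifitm3 (0.72) and the R-spondin receptor Lgr4 (0.70). Synpo2l, a gene of striated muscle, fell from a mean of 3.41 CPM in Wt to 0.702 in E1C8 and 0.275 in E1C5. The predicted genes Gm3468 and Gm3636 led the higher genes of E1C5 at 0.809 and 1.38 CPM, with 0 and 0.0177 CPM in Wt, and share sequence with near copies, so their counts are uncertain.

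Whether the genotype acted differently in muscle progenitors than in mesenchyme was tested as an interaction. Of 13320 genes, 54 (0.405%) differed for both mutants, with 23 more positive and 31 more negative in muscle progenitors. For E1C5 alone 134 (1.01%) differed (75 and 59), and for E1C8 alone 2 (0.0150%), both more negative, with 782 genes at an unadjusted p under 0.05. For both mutants Rbm24 had a difference of effects of -1.80 on the log2 scale (adjusted p 0.0141). Bmpr1b was at 21.2, 15.9 and 18.7 CPM in Wt muscle progenitors, 12.2, 12.2 and 9.73 in E1C8 and 10.5, 6.42 and 14.4 in E1C5, whereas its mesenchymal means were 9.14, 11.7 and 11.1 CPM (difference of effects -0.99, adjusted p 0.0210). For E1C5 the difference was -0.71 for Gas1 and -0.77 for Net1. It was positive for Meox2 (0.66), which fell in E1C5 mesenchyme (log2 -0.82) while its mean in muscle progenitors was 111 CPM in Wt and 100 in E1C5.

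The migration ligands were examined in mesenchyme, the tissue the cells cross. Of 16712 genes tested there, both mutants differed from Wt in 334 (2.00%), E1C8 in 1364 (8.16%) and E1C5 in 255 (1.53%). Neither this test nor the interaction was fitted with sex as a covariate. Of the 9 ligands, 1 was called in both mutants and in E1C8, and 0 in E1C5. That ligand was Slit3, at 40.8, 33.0 and 39.6 CPM in Wt, 24.8, 25.7 and 24.5 in E1C8, and 28.2, 29.4 and 27.7 in E1C5 (both mutants, log2 -0.49 ± 0.08, adjusted p 0.0134; E1C5, -0.35, adjusted p 0.0925). Each mutant library lay below each Wt library, and without the small libraries Wt replicate 3 and E1C8 replicate 1 the adjusted p was 0.095. Hgf was at 20.5, 18.2 and 12.8 CPM in Wt, 18.5, 15.3 and 18.7 in E1C8, and 19.6, 14.1 and 25.6 in E1C5 (both mutants, log2 0.11, adjusted p 0.791), and the groups overlap.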

How the data were processed

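All 9 libraries were made at a genomics facility with the 10x Genomics 3′ v3.1 kit, 1 library per pair of forelimb buds, and the submitters' processing notes name Cell Ranger 6.0.1, Seurat 4.3.0.1 and mm10. The values used are the UMI counts per gene and barcode as deposited by the authors, with no filter on cells visible in the files. Of 32289 features, 4 transgenes entered no test, and the 1809 X- or Y-linked genes entered no genotype test. Barcodes needed more than 2500 genes, under 200000 UMIs and under 10% mitochondrial UMIs. The members, gene lists and tests were chosen with earlier results of these data known.

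UMIs were summed per library and cell group. Genes with a minimum count of 10 (filterByExpr) were fitted with edgeR 4.0.16 in R 4.3.3 (quasi-likelihood test, TMM scaling, two-sided, Benjamini-Hochberg over all genes tested, called at an adjusted p under 0.05), with all groups in 1 fit. The fit was tested on simulated data. Standard errors come from the fold change and its F statistic. The counting of strand is not given in the sources used here. Libraries need 20 cells. Shares were compared by exact permutation with scipy 1.17.1. Nothing ties libraries to litters or days, so p-values measure the spread between libraries. Embryo, litter and preparation cannot be told apart in that spread. Counting intervals cover counting error only.

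Genes are named if they belong to a list or, per direction, are the 5 called genes of largest fold change whose genotype groups do not overlap, or the 15 higher and 5 lower against mesenchyme (10 and 5 for the Myf5 classes) with at least 20 CPM and 1 direction in every library. Grem1 and genes said to be singled out were added, and a few genes that these rules would name are not reported here. Replicate numbers are shared by the groups, but deviations of samples with the same number correlated between -0.403 and 0.224, so they were not treated as pairs. Alternatives comprised doublets or mixed cells removed, thinning, other filters and scaling, DESeq2 1.42.0, sex as covariate, a replicate block and leaving out libraries. Not every comparison had every alternative. Sex as a covariate was fitted only for the genotype test in muscle progenitors. The mesenchyme and interaction results were not checked for sex, though all Wt embryos were male there too. The stricter group, the removal of both small libraries together, the contrast of E1C5 with E1C8 and the separate mutant contrasts in mesenchyme and in the interaction were added after seeing the data. A single-cell share with no replicate has a Wilson interval at 95%.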

Additional observations from a re-analysis of the deposited data

Results flagged for a closer look

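The genes below had a genotype effect (both mutants against Wt) that differed between muscle progenitors and mesenchyme by the interaction test of edgeR, with the difference of effects in log2 units, positive where the effect is more positive in muscle progenitors. Rbm24 gave -1.80 (adjusted p 0.0141) and Bmpr1b -0.99 (adjusted p 0.0210). Gas1, the hedgehog co-receptor, gave -0.54 (adjusted p 0.0252), with means of 304, 269 and 184 CPM in Wt, E1C8 and E1C5 muscle progenitors and 265, 306 and 264 in mesenchyme. Sema3a, a repulsive guidance cue, gave -0.58 (adjusted p 0.0222), at 25.3, 23.8 and 18.6 CPM in muscle progenitors and 41.5, 46.6 and 53.9 in mesenchyme. Isl1 gave -1.76 (adjusted p 0.0257), at 5.09, 4.47 and 0.719 CPM in muscle progenitors and 0.696, 0.843 and 0.955 in mesenchyme. It is 1 of the 5 neuronal markers, whose sums were 14.8 to 32.5 CPM in Wt, 16.7 to 19.4 in E1C8 and 9.92 to 11.7 in E1C5 muscle progenitors, and the part of neuronal RNA in it was not tested. Cdkn1c, a cell cycle inhibitor, gave -0.35 (adjusted p 0.0417), at 750, 581 and 446 CPM against 711, 778 and 489. Jag1, a Notch ligand, gave 0.68 (adjusted p 0.0417), at 5.22, 5.26 and 4.15 CPM against 9.67, 5.92 and 4.11. Hoxa10 gave 0.41 (adjusted p 0.0417), at 136, 204 and 162 CPM against 159, 184 and 128. Fcer1g, a gene of myeloid cells, gave 3.05 (adjusted p 0.0386) at 2.10 CPM or less in the muscle progenitors of each genotype, where immune marker sums were also highest in mutant libraries; the part of immune cells in it was not tested.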

How the results depend on the processing

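The comparison with mesenchyme and that of the Myf5 classes held best. Leaving out 1 library gave 1094 to 1212 and 106 to 162 called genes, and the former gave 2334 with no filter on low counts and 700 with thinned cells. The 3 share differences with Wt (both mutants, E1C8, E1C5) turned to -0.0572, -0.078 and -0.0364 points with at least 4 markers, and for both mutants and E1C8 to -0.445 and -0.92 in the stricter group. Leaving out 1 library gave -0.0325 to 0.619, -0.00548 to 0.646 and -0.224 to 0.592 points.

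Genotype counts moved most. With sex as a covariate they were 0 for both mutants, 11 for E1C8, 0 for E1C5 and 134 for E1C5 against E1C8. With mixed cells removed they were 110, 328, 152 and 427, without the count filter 411, 597, 462 and 788, and by DESeq2 233, 478, 264 and 543. Removing called doublets gave 100 for both mutants. Thinning gave 98, 51 and 165 for the last 3 contrasts. At least 50 cells per library gave 55 for E1C8 and 137 for E1C5 against E1C8, and leaving out both small libraries gave 448 for the latter. Leaving out 1 library gave 25 to 72, 13 to 300, 0 to 107 and 9 to 599. Both mutants fell to 26 without Wt replicate 3 and 25 without E1C8 replicate 2, E1C8 to 13 and E1C5 against E1C8 to 9 without E1C8 replicate 2, and E1C5 to 0 without E1C5 replicate 2, where 1145 genes had an unadjusted p under 0.05. The replicate block, for numbers that do not pair the samples, gave 40 for both mutants, 46 for E1C8, 4 for E1C5 and 42 for E1C5 against E1C8. In both mutants the calls of Rbm24, Net1 and Fst were lost under 1 of 21 alternatives each, sex as covariate. Cdkn1a in both mutants and Id3 in E1C8 were lost under 10 of 21.

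The interaction gave 484 calls without the count filter, 100 with mixed cells removed, 102 without both small libraries, and 1 to 66 leaving out 1 library (1 without E1C8 replicate 3, 10 without E1C5 replicate 3). For E1C5 it gave 792, 254, 246 and 31 to 156 (31 without E1C5 replicate 3), and for E1C8 255, 9, 16 and 0 to 18 (0 without E1C5 replicate 2 or any 1 E1C8 library, where 592 to 876 genes had an unadjusted p under 0.05, and 18 without Wt replicate 2). Of the 9 ligands, DESeq2 called 2, 2 and 1 in both mutants, E1C8 and E1C5. In both mutants 0 were called with the replicate block and 0 without both small libraries, with 3 at an unadjusted p under 0.05 in each. In E1C8 leaving out 1 library gave 1 to 2. The share of all mesenchymal genes called in these fits is not given here. These counts therefore cannot be read as results about the ligands. The cause of these shifts was not tested. The 42 and 70 cells of the small libraries limit what low genes can show.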
